A study of Mus musculus with 3 samples.

Results

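The genes described here are 10 genes of epithelial adhesion and of the epithelial-mesenchymal transition, the programme by which epithelial cells loosen their junctions and take on mesenchymal traits. They were chosen by name, as the rows of the deposited tables with their Ensembl identifiers, and all 10 were found among 24318 rows with an identifier. The 4 epithelial members are Epcam, Cdh1, Ctnna1 and Tjp1, and the 6 mesenchymal members are Cdh2, Vim, Zeb1, Zeb2, Snai1 and Snai2. H3K36me3, a histone mark of transcribed gene bodies, was profiled by CUT&Tag, in which an antibody directs a transposase to cut and tag the DNA beside the mark. The cells came from the fetal pancreas of WT C57BL/6 mouse embryos of 3 stages (E11.5, then E13.5, then E15.5), were labelled for the surface protein EpCAM and were sorted by flow cytometry. Each stage has 1 library, 3 in all, with the same antibody, and no stage carried a treatment or a modified allele. The number of embryos behind a library is not given in the labels. With 1 library per stage there is no measure of spread, no test and no p-value, so each difference below is a size in these libraries. The Epcam product is also the protein used to sort the cells.

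H3K36me3 is laid down behind elongating RNA polymerase II by SETD2, so it marks genes that are being transcribed rather than their start sites. E-cadherin (Cdh1) joins neighbouring epithelial cells at adherens junctions, alpha-catenin (Ctnna1) links the cadherin complex to actin, ZO-1 (Tjp1) is the scaffold of tight junctions, and EpCAM is an epithelial adhesion glycoprotein. N-cadherin (Cdh2) and the intermediate filament vimentin (Vim) are classical mesenchymal markers, although N-cadherin is also found in pancreatic endocrine cells. The zinc-finger repressors Snai1, Snai2, Zeb1 and Zeb2 are known to bind E-boxes in promoters of epithelial genes, Cdh1 among them.

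Values are mean coverage per position in 3 columns that the authors headed GB, PR and SE. The window behind PR holds 6000 positions and that behind SE 12000, worked out from the values, and their places along the gene are not stated. The number of positions behind a GB value could also be worked out from the values alone, which served to check which gene a row holds. It equalled the length of the RefSeq gene (GRCm38.p6, the assembly behind mm10) for 6 members: Epcam (chr17:87635979-87651127, 15149 positions), Cdh1 (chr8:106603350-106670247, 66898 positions), Cdh2 (220370 positions), Vim (chr2:13574311-13582826, 8516 positions), Zeb2 (chr2:44983512-45117442, 133931 positions) and Snai2 (chr16:14705852-14709395, 3544 positions). The recovered window of Ctnna1 (135864 positions) was within 1% of the 135875 of its RefSeq gene, as was that of Snai1 (4617 against 4620, gene at chr2:167538195-167542814) and that of Zeb1 (183609 against 184142). Tjp1 gave 75080 positions where its RefSeq gene spans 231686, but 75080 is also the distance from the start site of its RefSeq promoter entry, 65371244 on chromosome 7, to the far end of the gene at 65296165. GB is therefore taken as the mean over the whole gene, exons and introns together.

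Of the 10 members, 5 have an entry in the RefSeq promoter table (GRCm38.p6). The 4 with a single entry are printed to show where the E-box that SNAI and ZEB proteins bind lies in front of an epithelial or a mesenchymal gene, and Zeb2 has 4 entries. Each sequence is the 250 bases before the start site, 5′ to 3′ on the strand of the gene, with each match of CACCTG, on either strand, in capitals.
Epcam, chr17:87635729-87635978, plus strand: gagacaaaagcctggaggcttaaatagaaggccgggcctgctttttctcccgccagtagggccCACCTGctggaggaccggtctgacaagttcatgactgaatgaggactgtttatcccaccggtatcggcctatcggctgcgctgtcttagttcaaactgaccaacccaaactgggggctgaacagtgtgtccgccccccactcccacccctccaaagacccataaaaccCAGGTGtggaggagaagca
Tjp1, chr7:65371245-65371494, minus strand: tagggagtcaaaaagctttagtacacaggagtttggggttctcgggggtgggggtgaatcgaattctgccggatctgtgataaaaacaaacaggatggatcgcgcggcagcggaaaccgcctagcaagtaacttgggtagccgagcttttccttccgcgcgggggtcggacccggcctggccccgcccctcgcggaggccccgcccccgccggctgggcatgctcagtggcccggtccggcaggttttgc
Vim, chr2:13574061-13574310, plus strand: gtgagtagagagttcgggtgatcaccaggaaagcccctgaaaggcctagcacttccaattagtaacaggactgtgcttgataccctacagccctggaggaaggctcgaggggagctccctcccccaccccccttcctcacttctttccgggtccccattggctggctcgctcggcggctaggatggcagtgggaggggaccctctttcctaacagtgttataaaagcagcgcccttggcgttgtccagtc
Snai1, chr2:167537945-167538194, plus strand: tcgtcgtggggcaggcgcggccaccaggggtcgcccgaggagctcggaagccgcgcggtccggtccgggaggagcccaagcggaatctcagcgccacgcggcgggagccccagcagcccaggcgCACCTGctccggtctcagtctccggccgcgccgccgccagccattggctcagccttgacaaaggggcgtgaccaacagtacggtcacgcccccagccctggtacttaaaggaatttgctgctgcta

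Epcam held 2 matches, with their first bases 187 and 19 bases upstream of the start site, and Snai1 held 1, at 126 bases. Vim, Tjp1 and all 4 entries of Zeb2 held none. Of the 32851 entries of the table, 17.2% held a match in the same 250 bases, so a match is common and is a description of letters only. The GC content of these windows was 56.4% for Epcam, 63.2% for Tjp1, 58.4% for Vim and 70.0% for Snai1, against a median of 52.4% over the table.

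The libraries differ in overall shape, which bears on every level below. The median GB over identified rows, in deposited units, was 0.00432, 0.00421 and 0.00371 in stage order, and GB was at 0 in 12.9, 14.8 and 20.3% of rows. The median PR was 0.00394, 0.00368 and 0.00559 in stage order. Percentiles below are the share of identified rows of the same library with a lower value, with ties counted by 50%, and they do not move with any single scale factor of a library. They do depend on the share of rows at 0, so percentiles among rows above 0 alone are added for some members. Coverage is also given as positions, the value times the window length in units of 1 position covered once. A PR window at the median held 146, 132 and 206 positions in stage order, so PR and SE values of single genes rest on little coverage, whereas the long gene body of Cdh2 held 2917 or more.

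Over gene bodies the epithelial and mesenchymal members overlapped widely at E11.5 and least at E15.5. All 4 epithelial members had a higher GB at E15.5 than at E11.5, and all 6 mesenchymal members a lower one. In deposited units Cdh1 and Epcam differed most among the epithelial members, with log2 differences of 1.97 and 1.85, an order that quantile normalization turned (1.48 and 1.62). In the mesenchymal list Snai2 was listed at 0 at E15.5, and Zeb2 differed least. By length-weighted mean, in which all gene bodies of a list count as one, the epithelial list held 0.00401, 0.00522 and 0.0109 in stage order and the mesenchymal list 0.00409, 0.00318 and 0.00226. Cdh1 alone held 10740 of the 19542 positions of coverage of the epithelial list at E15.5, against 2454 of 7266 at E11.5. The lists were not recomputed without Cdh1.

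**Figure D1:**
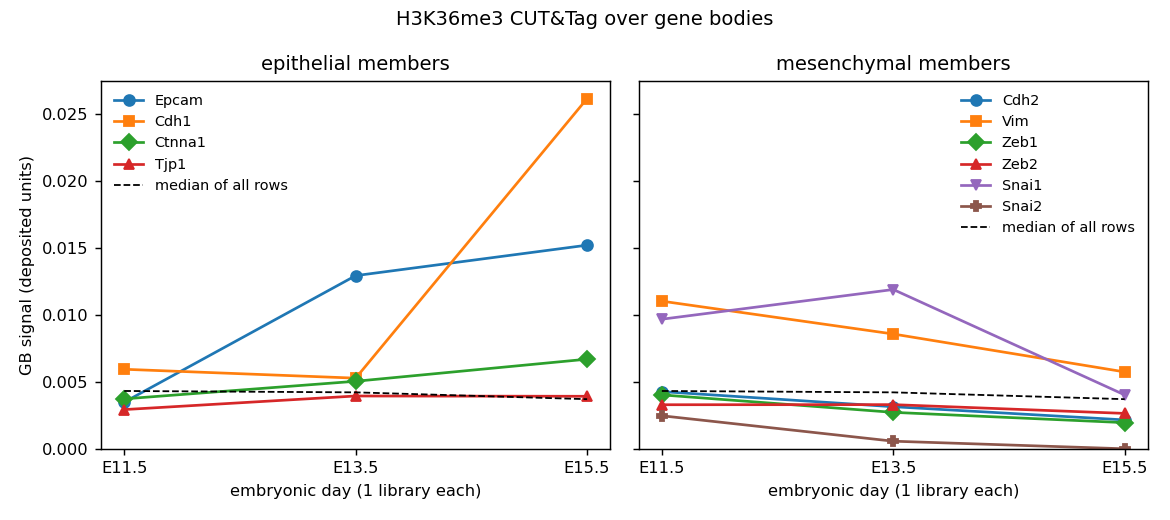
GB signal in deposited units (vertical axis) at the 3 stages (horizontal axis, 1 library each) for the 4 epithelial members on the left and the 6 mesenchymal members on the right, with the median of all identified rows as a dashed line. Cdh1 and Epcam lie far above the dashed line at E15.5, at 0.0262 and 0.0152. Vim and Snai1 start above it at E11.5. Vim comes down toward it from stage to stage, whereas Snai1 is higher at E13.5 (0.0119) and near the line only at E15.5.

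Epcam (ENSMUSG00000045394), the sorting marker, had a GB of 0.00348, 0.0129 and 0.0152 in stage order. It was low at the first stage, at percentile 41.6, and high at the later ones, at percentiles 92.0 and 85.5. Its gene body held 326, 1170 and 1414 positions of coverage in stage order. E13.5 was 3.11-fold above E11.5 (log2 difference 1.64 with 0.001 added to each value), and E15.5 was 1.16-fold above E13.5. The step between the first stages was therefore the large one for the sorting marker. Over the whole span its ratio lay at percentile 90.5 of all rows and 91.6 of rows of similar gene-body length.

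Cdh1 (ENSMUSG00000000303), which encodes E-cadherin, followed another course. Its GB was 0.00594, then 0.00528, then 0.0262, with 2454, 2108 and 10740 positions of coverage. The earlier stages lay close together, at percentiles 63.8 and 60.4, and E15.5 alone was high, at percentile 93.2. Among 5107 rows with a gene body between 0.5 and 2 times as long as that of Cdh1, its GB at E15.5 reached percentile 99.6. E15.5 was 4.33-fold above E13.5 (log2 difference 2.11), a ratio at percentile 99.8 of rows of similar length, and 3.91-fold above E11.5 (log2 difference 1.97), at percentile 99.5. Among all rows these ratios lay at percentiles 92.1 and 91.2.

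The junction scaffolds differed less. Ctnna1 (ENSMUSG00000037815), the actin linker of the cadherin complex, had a GB of 0.00373, 0.00504 and 0.00669 in stage order, and each library was above the one before. Its percentile went from 44.0 through 58.3 to 66.4. Its ratio of E15.5 to E11.5 was 1.63-fold, at percentile 75.8 of all rows and 91.5 of 3028 rows of similar length. Tjp1 (ENSMUSG00000030516), the tight junction scaffold, had 0.00293, 0.00394 and 0.00392. Its percentiles were 35.9, 46.9 and 51.5 among all rows, and 20.4, 38.3 and 45.1 among rows of similar length. Among rows above 0 they were 26.4, 37.6 and 39.1. It was the lowest epithelial member in all 3 libraries, and its later libraries were level, with a ratio of E15.5 to E11.5 of 1.25-fold.

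Among the mesenchymal members, the structural genes began at unlike levels. Vim (ENSMUSG00000026728), the vimentin gene, had the highest GB of all 10 members at E11.5. Its values were 0.0110, 0.00857 and 0.00574 in stage order, at percentiles 86.9, 81.3 and 62.1. Vim thus came down toward the median of all rows and was still above it at E15.5. Among rows of similar length its percentiles were 78.5, 71.2 and 44.9, so there it ended below the middle. The body of Vim is short, and it held 580, 436 and 300 positions. Cdh2 (ENSMUSG00000024304), the N-cadherin gene, had 0.00427, 0.00314 and 0.00216 over a long body that held 5812, 4136 and 2917 positions. Each library of Cdh2 lay below the one before in deposited units, but its percentiles were 49.6, 37.9 and 38.4. Among rows above 0 they were 42.1, 27.1 and 22.7. Quantile normalization turned the step from E13.5 to E15.5 to 0.0166. The log2 difference of E15.5 to E11.5 was -0.74.

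The repressors Zeb1 and Zeb2, both long genes, were below the median of all rows in all 3 libraries. Zeb1 (ENSMUSG00000024238) had a GB of 0.00402, 0.00272 and 0.00195, with 4564, 2984 and 2200 positions and percentiles 47.0, 33.6 and 36.9. Among rows above 0 its percentiles were 39.1, 22.1 and 20.8. Its log2 difference of E15.5 to E11.5 was -0.77, close to that of Cdh2. Among rows of similar length these ratios lay at percentile 12.5 for Zeb1 and 13.3 for Cdh2, and among all rows at 24.9 and 25.5. Zeb2 (ENSMUSG00000026872) was nearly level, with 0.00329, 0.00330 and 0.00264 and percentiles 39.7, 39.7 and 42.2. Among rows above 0 its percentiles were 30.7, 29.2 and 27.4. Its log2 difference of -0.24 over the whole span is the smallest of the list, and quantile normalization turned its sign.

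The short Snai genes rest on little coverage. Snai1 (ENSMUSG00000042821) had a GB of 0.00968, 0.0119 and 0.00402, at percentiles 83.3, 90.5 and 52.1, from only 276, 328 and 114 positions. It was high at both earlier stages and near the median of all rows at E15.5, with a log2 difference of -1.36 between E13.5 and E15.5. Among rows of similar length its percentiles were 69.1, 80.7 and 40.7. Snai2 (ENSMUSG00000022676), also called Slug, had 0.00247, 0.000567 and 0, from 54, 12 and 0 positions. It was the lowest member in all 3 libraries, and no fold is given against its value of 0.

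Set against each other, the lists changed order. At E11.5 the median GB was 0.00361 in the epithelial list and 0.00415 in the mesenchymal list, and the epithelial member was the higher one in 9 of the 24 pairs of an epithelial with a mesenchymal gene. At E13.5 the medians were 0.00516 and 0.00322, and the epithelial member was higher in 18 pairs. At E15.5 they were 0.0109 and 0.00240, and it was higher in 22 pairs. The exceptions were Vim and Snai1, both above Tjp1, so the lists still overlapped. The log2 ratio of the medians was -0.16, 0.55 and 1.81 in stage order, and any scale factor of a library cancels in it apart from the 0.001 added. Without Epcam the last value was 1.18.

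**Figure D2:**
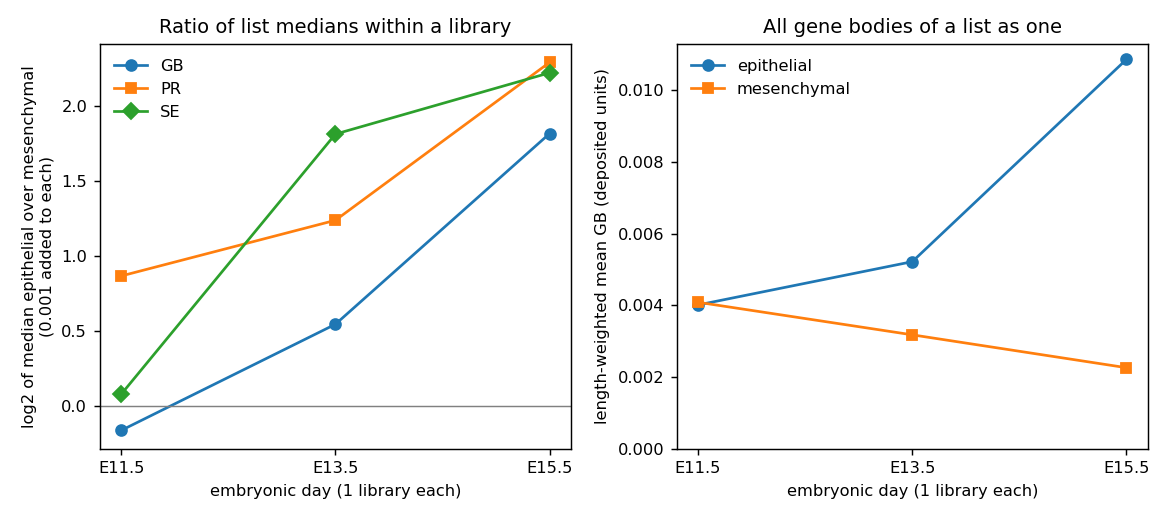
On the left, log2 of the median epithelial over the median mesenchymal value within each library (0.001 added), for the GB, PR and SE columns. On the right, length-weighted mean GB of each list in deposited units. The GB ratio goes from -0.16 to 1.81, and the list means are close at E11.5 (0.00401 and 0.00409) and apart at E15.5 (0.0109 and 0.00226).

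Members past 2-fold in GB were counted beside the share of all rows past the same fold. A row was counted where its higher library reached 0.00413, the median of GB over identified rows and libraries. Between E11.5 and E13.5, 1 of 3 epithelial members above that floor was at least 2-fold higher at E13.5 (Epcam), 0 mesenchymal members were at least 2-fold higher, and 0 of either list were at least 2-fold lower. Of all 16346 rows above the floor, 17.2% were higher and 19.4% lower by that much. Between E13.5 and E15.5, 1 of 3 epithelial members was higher (Cdh1) and 1 of 2 mesenchymal members lower (Snai1), where 27.6% of rows were higher and 22.1% lower. Between E11.5 and E15.5, 2 of 3 epithelial members were higher (Epcam and Cdh1) and 1 of 3 mesenchymal members lower (Snai1), where 26.5% of rows were higher and 22.8% lower. Epcam reached the floor only in its later libraries. The Snai1 call over the whole span rests on 276 against 114 positions, and it ended on division by the median GB (log2 difference -0.90) and with 0.005 added in place of 0.001 (-0.70). With 0.005 added, its difference from E13.5 to E15.5 also missed 2-fold (-0.91). These pairs of stages share libraries and are not separate evidence.

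In deposited units the direction of a difference, whatever its size, was least divided between the lists in the first interval. From E11.5 to E13.5 GB was higher in 3 of 4 epithelial and in 2 of 6 mesenchymal members, and lower in 1 and 4, where 43.7% of all identified rows were higher and 47.3% lower. Over the whole span GB was higher in 4 of 4 epithelial and lower in 6 of 6 mesenchymal members, where 42.7% of all identified rows were higher and 47.2% lower. From E13.5 to E15.5 it was higher in 3 of 4 epithelial and lower in 6 of 6 mesenchymal members, against 44.1% higher and 44.8% lower over all rows. The median log2 difference over the whole span was 1.28 in the epithelial list, -0.80 in the mesenchymal list and 0.00 over all rows. Quantile normalization, which makes the libraries equal in distribution, left 4 of 4 epithelial members higher and 5 of 6 mesenchymal members lower over the whole span. It gave 3 and 4 from E11.5 to E13.5, and 3 and 3 from E13.5 to E15.5. The second interval was then the least divided. In sorted cells measured in bulk, fewer cells that carry the mark and less of it per cell cannot be told apart.

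In the PR column the junction genes stood out at E15.5, and the sorting marker did not. Cdh1 had a PR of 0.00826, 0.0151 and 0.0585 in stage order, at percentiles 74.8, 94.8 and 98.0. Ctnna1 had 0.00799, 0.00530 and 0.0320, and Tjp1 had 0.00281, 0.00474 and 0.0245, so both were high at E15.5 alone, at percentiles 90.1 and 84.2. Epcam went the other way, with 0.00399, 0.00491 and 0.00215 and percentiles 50.4, 59.0 and 39.9, and its PR window held 148, 176 and 79 positions. In deposited units the E15.5 value of Epcam was its lowest in PR and its highest in GB, although its GB percentile was higher at E13.5 (92.0) than at E15.5 (85.5) and quantile normalization gave a log2 difference of -0.47 for that step in GB.

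Mesenchymal PR values were near or below the middle of the column at E15.5. Vim had 0.00227, 0.00307 and 0.00809, and Cdh2 was level at 0.00567, 0.00530 and 0.00532. Zeb1 had 0.00200, 0 and 0.00413, and Zeb2 had 0.00329, 0 and 0.000217, so both repressors were listed at 0 at E13.5. Snai1 had 0.00731, 0.00558 and 0.00467. Snai2 had 0.00238, 0.000112 and 0.00755, from 88, 4 and 278 positions. At E15.5 Vim was highest at percentile 55.8 and Zeb2 lowest at 26.4. Median PR was 0.00599, 0.00511 and 0.0283 in the epithelial list and 0.00283, 0.00159 and 0.0050 in the mesenchymal list, with the epithelial member higher in 19, 18 and 19 of 24 pairs.

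Many rows had a higher PR at E15.5, and the members' counts are read against that. Between E11.5 and E15.5, 3 of 3 epithelial members above the PR floor of 0.00407 were at least 2-fold higher (Cdh1, Ctnna1 and Tjp1). Tjp1 reached the floor only at E15.5, and after quantile normalization 2 members were left, since Ctnna1 came to a log2 difference of 0.79. Among 5 mesenchymal members above the floor, 2 (Vim and Snai2) were past 2-fold higher too. Like Tjp1, both reached the floor only through E15.5, the library in which they are high. Zeb2, at -1.82, was under the floor in both libraries. Of all rows above that floor, 50.0% were higher and 26.0% lower. Between E13.5 and E15.5, 3 of 4 epithelial members (Cdh1, Ctnna1 and Tjp1) were at least 2-fold higher, and 2 after quantile normalization, where Cdh1 came to 0.40. Among 5 mesenchymal members above the floor, 3 (Vim, Zeb1 and Snai2) were past 2-fold higher as well. They again reached the floor only at E15.5, from values of 0 for Zeb1 and 4 positions for Snai2 at E13.5. With 0.005 added 1 of these was left. Among all rows above the floor 52.2% were higher and 24.7% lower. Between E11.5 and E13.5, 0 of 4 epithelial and 0 of 2 mesenchymal members above the floor passed 2-fold in either direction. Zeb1 (-1.58), Zeb2 (-2.10) and Snai2 (-1.60) were past 2-fold lower but under the floor in both libraries. Of all rows above the floor, 28.8% were higher and 32.8% lower. The PR ratios of E15.5 to E11.5 lay at percentile 80.5 of rows of similar length for Cdh1, 81.1 for Tjp1 and 70.0 for Ctnna1. The PR window holds 6000 positions in every row, so similar gene length does not match its size. Among all rows the PR ratios lay at 85.1, 85.7 and 74.8, and the GB ratio of Cdh1 at 91.2. Of all 2-fold PR calls between these stages 65.8% were higher, and 50.1% after quantile normalization. Between E13.5 and E15.5 these shares were 67.9 and 50.1%.

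**Figure D3:**
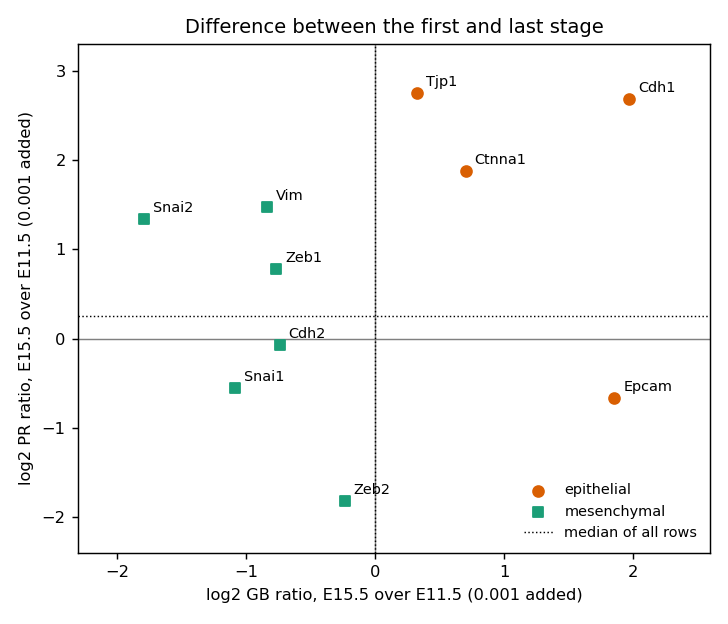
Log2 ratio of E15.5 over E11.5 in GB (horizontal axis) and in PR (vertical axis), with 0.001 added to each value, for the 10 members; dotted lines are the medians of all identified rows. Epithelial members lie to the right of 0 and mesenchymal members to the left, whereas in PR Epcam lies below 0 and Vim, Zeb1 and Snai2 above it.

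In the SE column the lists no longer overlapped at E15.5. Cdh1 had an SE of 0.00847, 0.00880 and 0.0407 in stage order, and Epcam had 0.00486, 0.0104 and 0.0178. Ctnna1 had 0.00487, 0.0104 and 0.0194, and Tjp1 had 0.00140, 0.00237 and 0.0131. All 4 were highest at E15.5 in deposited units, where the median SE of all rows was also higher (0.00592, against 0.00416 at E13.5). By percentile Cdh1 (79.6, 84.0 and 98.2) and Tjp1 (18.5, 29.2 and 74.7) were highest at E15.5, whereas Epcam (53.7, 89.8 and 84.1) and Ctnna1 (53.8, 89.8 and 86.4) were highest at E13.5. Vim went from 0.00795 and 0.00770 to 0.00405, and Cdh2 from 0.00480 to 0.00268 and 0.00266.

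Snai1 was the highest mesenchymal member in SE at E15.5. It had 0.00874, 0.00458 and 0.0115, and its percentiles were 80.9, 54.5 and 70.8, so E15.5 was its highest value in deposited units and E11.5 by rank. Zeb1 had 0.00127, 0 and 0.00206, Zeb2 had 0.00429, 0.000865 and 0.000108, and Snai2 had 0.00121, 0.00135 and 0.00377. The epithelial member was the higher one in 15, 21 and 24 of 24 pairs in stage order. The lowest epithelial SE at E15.5, that of Tjp1, was 0.0131, above the 0.0115 of Snai1 by a small margin. The summed coverage of SE was below that of PR in 0 of 24318 rows in each library, as it would be if the PR window lay inside the SE window. In SE less PR, taken on that reading as the other 6000 positions, the lists overlapped again, with the epithelial member higher in 22 pairs at E15.5. There Epcam held 1232 positions and Snai1 676, whereas Cdh2, Vim, Zeb1, Zeb2 and Snai2 held 0. Such values of 0 were common in that library: the sums of SE and PR were equal in 7811 of 24318 rows at E15.5, against 2116 at E11.5. The count of 22 pairs rests in part on them.

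**Figure D4:**
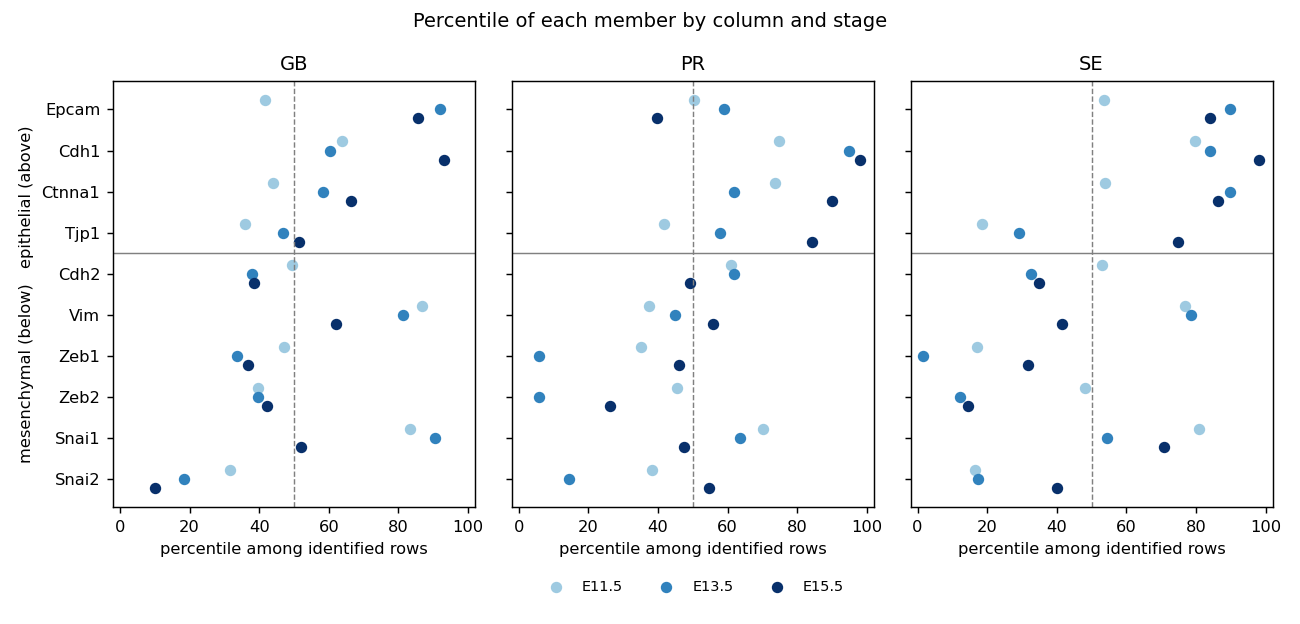
Percentile of each member among identified rows (horizontal axis) in GB, PR and SE, with 1 point per stage, darker for later stages, and a dashed line at the middle of the scale. At E15.5 the epithelial members lie to the right in GB and SE, from 51.5 for Tjp1 in GB to 98.2 for Cdh1 in SE, and in PR Epcam lies to the left at 39.9.

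The balance of PR and GB within a library differed among the members. The log2 ratio of PR to GB (0.001 added) was 0.16, -1.24 and -2.37 for Epcam in stage order, and at E15.5 only 5.94% of rows lay lower, ties counted by 50%. It was 0.42, 1.36 and 1.13 for Cdh1, 0.93, 0.06 and 2.10 for Ctnna1 and -0.05, 0.22 and 2.38 for Tjp1. Ctnna1 and Tjp1 were at percentiles 85.8 and 88.7 at E15.5. Zeb2 was low as well, at 0.00, -2.10 and -1.58 (percentiles 8.50 and 13.3 at the later stages). Zeb1 was -0.75, -1.90 and 0.80. With 0.001 added, both were lower than Epcam (percentile 20.7) at E13.5. Both had a PR of 0 there, so the size of their ratios and this order depend on the value added. Vim went from -1.88 and -1.23 to 0.43, and Cdh2 was 0.34 and 0.61 at the earlier stages, at percentile 69.4 by E15.5. Medians were 0.29, 0.14 and 1.62 in the epithelial list, -0.20, -1.10 and 0.61 in the mesenchymal list, and -0.06, -0.08 and 0.06 over all rows. For Snai2 at E15.5 the ratio of 3.10 rests on a GB of 0, and its size depends on the value added.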

How the data were processed

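H3K36me3 CUT&Tag signal was analysed in 3 libraries, 1 per stage. Bowtie2 2.4.2 and mm10 are listed in the submitters' processing notes; filters, gene models, windows and scaling are not given there. The authors deposited signal (mean coverage) in 3 columns per gene, per the file headers. Of 25493 rows, 1175 (4.61%) had no identifier and were left out. Multiplied by 6000 for PR and 12000 for SE, values came out as whole steps (0.161884, 0.167429 and 0.162919 in stage order) for 100.0% of those above 0, within a tolerance of 0.05 steps. GB lengths are the smallest number of positions that gave whole multiples in all libraries above 0, with sums at 2 decimals, for 20542 rows with at least 2 such libraries. Read depth is unknown, and the lowest values showed no single fragment weight, so no counting interval is given.

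Values were compared as deposited, as log2(value + 0.001), with no test. Python 3.11.15, numpy 2.4.6 and pandas 2.3.3 were used, and the length search and the fold rule were tested on simulated data. All 10 members are named, a rule fixed together with the lists, which were chosen with earlier results of these data known. Identifiers were paired with names for the members alone. The reference table held 0 of the deposited identifiers, so the lists of other junction and transition genes and of cell type markers, which include mesenchyme, endothelium, blood, mesothelium and nerve, could not be used, and the sorted cells were not checked against them.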

Additional observations from a re-analysis of the deposited data

How the results depend on the processing

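In all, 351 values for list medians, list ratios and counts were recomputed. Of these, 303 kept their direction and stayed within 1.5 times the main value, and 1 changed direction. The limit was applied to counts and to unlogged ratios, so a log2 value near 0 can move by more. Many of the 303 are counts of 0 that stayed at 0 and have no direction, so their share overstates how stable the results are. Every comparison is limited by single libraries of unknown depth. No paired analysis was possible because the stages have no replicates. Length-weighted means and division by the median of GB values above 0 were chosen after seeing the data. The cause was not tested unless the construction gives it. 

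Epithelial over mesenchymal medians (log2) became 1.18 in GB at E15.5 without Epcam, and 2.46 in PR at E13.5 without Cdh2 or without Vim, since Snai2 is then the middle value. Means gave 1.22 in SE at E13.5. SE outside PR gave -0.245 at E11.5, where SE gave 0.08. At E15.5 it gave 3.99, where the mesenchymal median was 0, so the size depends on the value added.

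A pseudocount of 1 shrinks every ratio by construction: 0 members were then past 2-fold in GB or PR. The list medians became 0.0105 (epithelial) and -0.0033 (mesenchymal) in GB for E15.5 over E11.5. In PR they became -0.0027 (mesenchymal, E13.5 over E11.5), 0.033 and 0.0031 (epithelial and mesenchymal, E15.5 over E13.5) and 0.0324 (epithelial, E15.5 over E11.5). With 0.0001 the mesenchymal PR medians were -1.97 and 1.52 for the first and second interval. In addition, 1 epithelial member was then at least 2-fold lower in PR from E13.5 to E15.5. With 0.005 the first of these medians was -0.35, and 0 mesenchymal members were at least 2-fold lower in GB at E15.5 against either stage. PR at E15.5 was then at least 2-fold higher in 1 mesenchymal member against E13.5 and in 0 against E11.5.

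With no floor, or a floor 5 times lower, mesenchymal members at least 2-fold lower numbered 1 in GB and 3 in PR for E13.5 over E11.5, and 2 in GB and 1 in PR for E15.5 over E11.5. A 1.5-fold threshold gave 3 mesenchymal members lower in GB over the whole span, and 2 epithelial members higher (E13.5 over E11.5) and 1 lower (E15.5 over E13.5) in PR. Division by the median GB ended the Snai1 call and left 0 mesenchymal members at least 2-fold lower in GB over the whole span. By any amount, 6 of 6 were still lower.

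Quantile normalization moved the median log2 PR ratio of all rows by -0.32 for E15.5 over E13.5 and -0.23 for E15.5 over E11.5, and the epithelial PR medians to 0.77 and 1.14. It left 2 epithelial members at least 2-fold higher in PR in each of these comparisons. By the same 2-fold rule it gave 2 mesenchymal members lower in GB and 1 in PR over the whole span. By that rule it also gave 1 epithelial member higher in PR from E11.5 to E13.5. From E13.5 to E15.5 it gave 1 epithelial member lower and 1 mesenchymal member higher in PR, again by 2-fold. Single genes that changed direction under it were Epcam (-0.47), Tjp1 (0.15), Cdh2 (0.0166), Zeb1 (0.15) and Zeb2 (0.0896) in GB from E13.5 to E15.5, Zeb2 (0.0901) in GB over the whole span, and Cdh2 in PR (0.0367 and -0.67 for the first and second interval). Division by the median GB turned Tjp1 in GB (0.14, E15.5 over E13.5) and Cdh2 in PR (0.11, whole span), and by the median above 0 Cdh2 in PR (-0.0945, E15.5 over E13.5). Percentiles of GB among rows of similar length were within 10 points of those among all rows in 19 of 30 cases. Percentiles of GB, PR and SE among rows above 0 alone stayed within 10 points in 67 cases and moved by more in 19.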
